A study of Homo sapiens with 72 samples.

Results

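EGR1, EGR2, EGR3, NR4A1, NR4A2, NR4A3, IER2, IER3, IER5 and ARC are immediate-early genes, followed here through experiments on G3BP1, an RNA-binding protein that nucleates stress granules. The 10 genes were chosen by their symbols, and all 10 were found among the 61541 Ensembl genes listed in each of 11 tables of comparisons. The group was put together with the arsenite and rescue fold changes of these tables known, so counts of genes that moved are given as descriptions. RNA-seq was made in U2OS, a human osteosarcoma line, in 2 experiments, and each group had 2 libraries. Groups of the first experiment were wild-type cells, untransfected cells without G3BP1 and its paralog G3BP2 (knockout), and knockout cells 24 h after Lipofectamine transfection of a G3BP1 transgene (rescue). The second had untransfected knockout cells, knockout cells 24 h after transfection of wild-type G3BP1, and knockout cells 24 h after transfection of G3BP1 lacking its NTF2 domain, each group without and with 200 uM sodium arsenite for 2 h. Every group of the second experiment was thus made from cells labelled as knockout for both genes, and wild-type U2OS cells were measured only in the first. No mock-transfected group was used here, so the presence of G3BP1 and the transfection itself cannot be told apart in any rescue group. Neither the promoter of the transgenes nor whether the knockout line is 1 clone is stated in the labels. RNA immunoprecipitation with sequencing (RIP-seq) compared 3 immunoprecipitates with 3 inputs from FlpIn 293 Trex, an embryonic kidney line, with stable FLAG-G3BP1 induced with 1 ug/mL tetracycline for 24 h.

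Immediate-early genes are switched on within minutes of a growth signal or a stress, before any new protein is made. Kinases of the MAPK pathways activate factors already bound at their promoters, mainly SRF with its ELK partners and CREB, and the transcripts are short-lived. EGR1, EGR2 and EGR3 encode zinc-finger transcription factors, and NR4A1, NR4A2 and NR4A3 encode orphan nuclear receptors that act without a known natural ligand. IER2 and IER5 encode nuclear regulators of the same fast response, IER3 a regulator of cell survival, and ARC a cytoskeleton-associated protein best known from synapses. Sodium arsenite binds thiols and causes oxidative stress, which stops translation and makes G3BP1-dependent stress granules form in the cytoplasm.

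The sequences before the start sites of EGR1, EGR2 and NR4A3 are shown because these genes had the highest folds of the 10 under arsenite. They are the 250 bases before the RefSeq start in GRCh38.p14, 5′ to 3′ on the gene's strand, with matches to the CArG box (the SRF site) and to CGTCA (the CREB half-site, on either strand) in capitals. The EGR1 window is chr5:138465229-138465478 on the plus strand, the EGR2 window chr10:62816367-62816616 on the minus strand and the NR4A3 window chr9:99821635-99821884 on the plus strand. For EGR2, the table lists 3 start sites, and the window shown is the only one of them with a match.
EGR1: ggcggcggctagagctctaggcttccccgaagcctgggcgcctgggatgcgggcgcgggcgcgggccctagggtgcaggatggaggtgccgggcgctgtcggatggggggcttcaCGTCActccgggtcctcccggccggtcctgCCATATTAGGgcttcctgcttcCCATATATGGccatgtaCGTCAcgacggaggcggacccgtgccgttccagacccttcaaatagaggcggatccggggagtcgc
EGR2: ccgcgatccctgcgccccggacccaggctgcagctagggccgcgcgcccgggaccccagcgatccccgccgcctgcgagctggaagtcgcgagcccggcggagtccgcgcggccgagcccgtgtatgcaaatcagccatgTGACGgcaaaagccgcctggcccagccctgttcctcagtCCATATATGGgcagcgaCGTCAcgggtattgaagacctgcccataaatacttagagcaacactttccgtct
NR4A3: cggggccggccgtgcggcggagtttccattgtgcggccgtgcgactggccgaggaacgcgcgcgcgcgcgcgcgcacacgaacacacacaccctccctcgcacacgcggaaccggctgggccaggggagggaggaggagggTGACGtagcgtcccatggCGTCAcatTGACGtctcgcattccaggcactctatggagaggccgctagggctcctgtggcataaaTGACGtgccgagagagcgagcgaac

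The EGR1 window held 2 CArG boxes and 2 CGTCA matches, the EGR2 window 1 and 2, and the NR4A3 window 0 and 4. A CArG box was found in 1.16% of all 35116 windows of this length and a CGTCA match in 21.2%. The whole CRE, TGACGTCA (in 1.65% of windows), the nuclear receptor site AAAGGTCA (1.05%) and TATAAA (10.7%) matched no window of these genes on either strand. The EGR site GCGNGGGCG matched once, before EGR1, against 8.41% of all windows. IER2 had 1 CGTCA match, and the windows of IER5 and NR4A1 had no match to any of these motifs. Windows were found for 6 of the 10 genes. These matches describe letters in the window and were not tested for binding.

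The mean library of a table had from 11990915 to 46949956 normalised reads in genes, fewest in the second experiment and most in the first. G3BP1 and G3BP2 themselves stood at log2 fold changes of -0.56 and -0.36 in knockout against wild-type cells in the authors' deposited table, so their RNA was still counted in the knockout. G3BP1 stood at 7.31 and 7.75 in the second experiment's rescues against knockout in the authors' deposited tables. The bone-lineage genes RUNX2, ALPL, COL1A1 and SPARC were measured in U2OS cells in both experiments, while SP7, BGLAP and IBSP had base means (mean normalised reads over a table's libraries) under 10. COL1A2 had a base mean of 17.5 in knockout and wild-type cells of the first experiment and 5.61 in knockout cells of the second. EPCAM, an epithelial marker, was measured in both lines, while PECAM1, CD3E and ALB, of endothelial, T and liver cells, were near 0. PTPRC, another marker of cells these cultures should lack, had a base mean of 21.3 in knockout and wild-type cells of the first experiment. It was at 2.6 in knockout cells of the second and at 0 in RIP-seq. In the kidney-derived cells PAX2, LHX1, EYA1 and CDH2 were measured, and PAX8 was listed at 0. Nothing in the labels says that the libraries of a group came from separate cultures, so p-values measure the spread between these libraries only.

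The first question was how the genes responded to arsenite in cells without G3BP1 and G3BP2. All 10 were higher with arsenite in knockout cells, from 1.28-fold for IER3 to 102-fold for NR4A3. In none of the 10 did the treated and untreated libraries overlap. Reads per library were solved for these genes only, so no share of all genes can be set beside this. Of the 10 genes, 8 were also apart in knockout against wild type of the first experiment. Here and below, libraries that do not overlap are thus a description and not a test. The 3 EGR genes, the 3 NR4A receptors, IER2, IER5 and ARC all rose at least 3.53-fold. In bulk RNA, more cells with a transcript and more transcript per cell cannot be told apart. All 10 genes passed the authors' test (adjusted p under 0.05, higher with arsenite), which called 8.56% of all tested genes higher and 10.9% lower. Their median log2 fold change was 2.50 in the authors' deposited table, against 0.00 over all tested genes.

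Levels below are reads divided by the size factor of the library (normalised reads), given for the deeper and then the shallower library of each group. EGR1, EGR2 and NR4A3 had the highest folds. EGR1 stood at 1575 and 1553 normalised reads without arsenite and at 31060 and 29476 with it in knockout cells, a 19.4-fold difference between group means. EGR2, which works in myelin formation and T-cell tolerance, went from 119.4 and 169.4 to 6683 and 6390 normalised reads in knockout cells, or 45.3-fold. NR4A3 went from 4.34 and 9.82 to 696.3 and 751.4 normalised reads in knockout cells. The untreated NR4A3 values rest on 4 and 8 reads, so its log2 ratio of 6.68 became 7.38 without the shallower untreated library and 6.20 without the deeper one. In each of these genes the treated libraries lay far above the untreated ones and close to each other.

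NR4A1, a nuclear receptor that can also act at mitochondria in cell death, was at 232.3 and 261.4 normalised reads in untreated and at 2813 and 2418 in arsenite-treated knockout cells, 10.6-fold higher. EGR3 rose 6.25-fold, from 19.5 and 24.6 to 145.1 and 130.5 normalised reads, in the same knockout cells. NR4A2, known from dopamine neurons, rose 3.53-fold in knockout cells, from 22.8 and 27.0 to 91.9 and 83.8 normalised reads. EGR3 and NR4A2 thus rest on few reads, and their responses were still larger than the spread between libraries.

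Among the IER genes, IER2 went from 1025 and 1099 to 8241 and 7619 normalised reads with arsenite in knockout cells, 7.47-fold higher. IER5, a regulator of heat shock factor 1, went from 805.6 and 1006 to 4969 and 4166 normalised reads, 5.04-fold higher. IER3 differed least, at 2048 and 2207 against 2783 and 2664 normalised reads, and 0.35 in the authors' deposited table (log2 fold change, SE 0.08, adjusted p 0.000127) was the lowest value of the 10. ARC rose 3.58-fold, from 238.8 and 245.5 to 879.0 and 856.4 normalised reads in knockout cells.

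**Figure D1:**
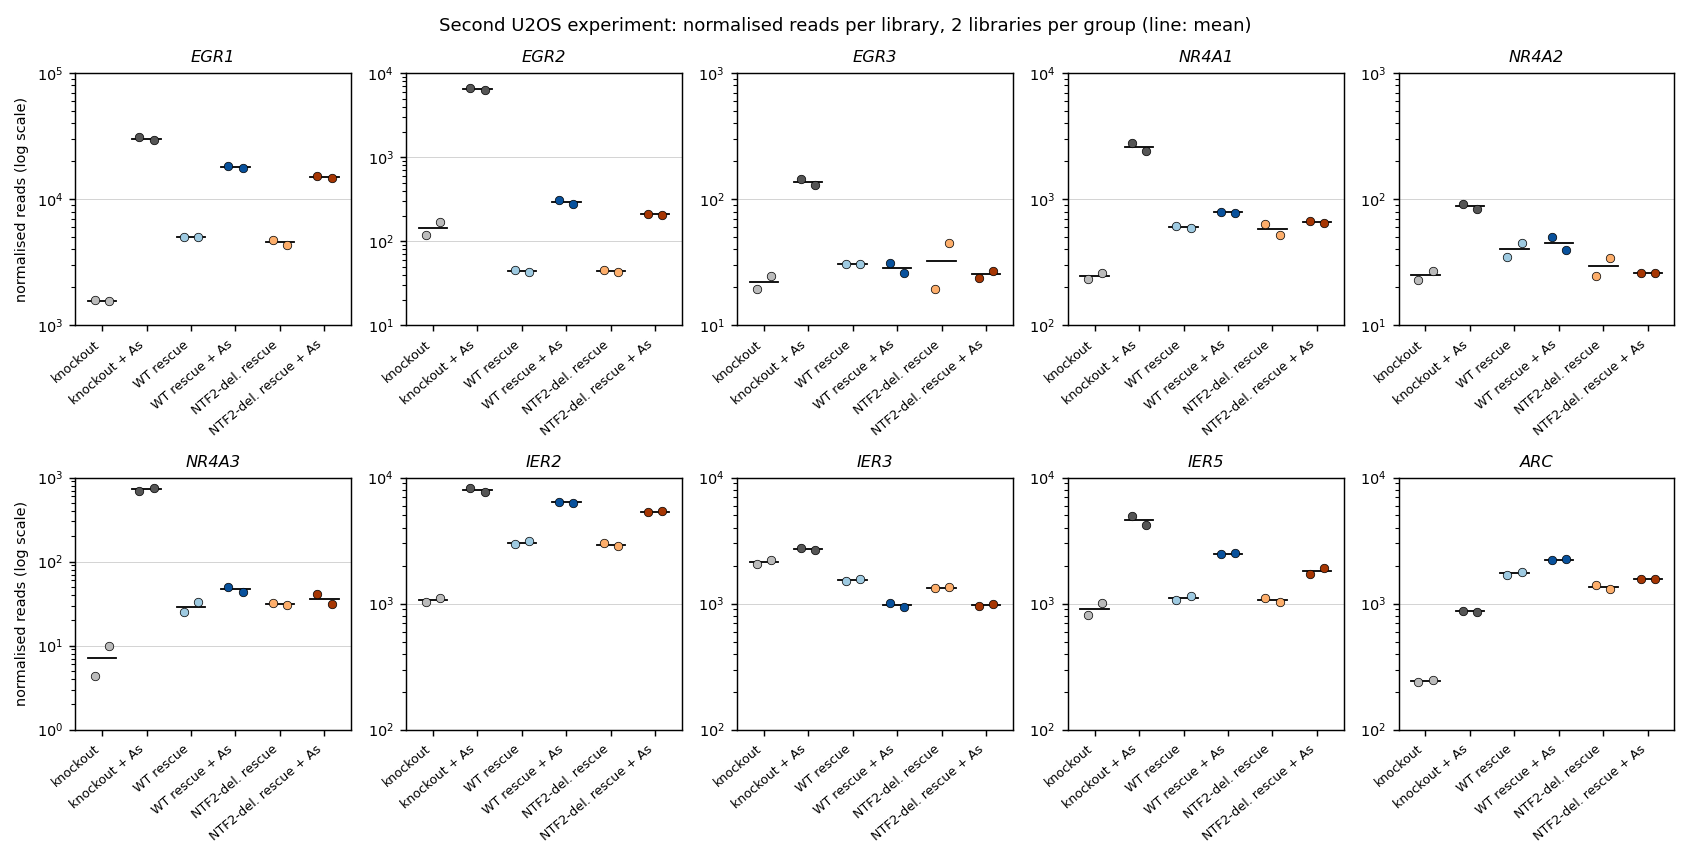
Normalised reads (log scale) of each gene in the 12 libraries of the second experiment, 2 points per group with a line at the mean; As is sodium arsenite, WT wild-type G3BP1 and NTF2-del. G3BP1 without its NTF2 domain. Arsenite-treated knockout cells are highest for all genes except ARC, and untreated knockout cells are lowest except for EGR2 and IER3.

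The same exposure was then followed in knockout cells transfected with wild-type G3BP1. EGR1, EGR2, IER2 and IER5 rose 3.60-, 6.70-, 2.09- and 2.23-fold, NR4A1 and ARC rose 1.31- and 1.28-fold, and IER3 fell. Of the 10 genes, 6 were called higher and 1 lower, where 8.18% and 12.2% of all tested genes were called higher and lower. EGR3, NR4A2 and NR4A3 were not called, at log2 fold changes of -0.07, 0.06 and 0.32 in the authors' deposited table. Over the 8 libraries of both rescues, EGR3 ranged from 19.6 to 45.2 and NR4A2 from 24.7 to 49.8 normalised reads.

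EGR1 was at 5055 and 5005 normalised reads without arsenite and at 18376 and 17844 with it in wild-type rescue. EGR2 went from 45.0 and 43.0 to 308.9 and 280.5 normalised reads in these cells, well below the level of treated knockout cells. NR4A1 moved from 610.6 and 588.0 to 790.7 and 784.9 normalised reads in wild-type rescue. NR4A1 thus began above the untreated knockout level and ended below the treated knockout level. NR4A3 was at 25.3 and 32.8 normalised reads without and 49.8 and 43.9 with arsenite in wild-type rescue, groups that did not overlap although the gene was not called (adjusted p 0.255, authors' deposited table). IER2 went from 2977 and 3116 to 6373 and 6337 normalised reads, and IER5 from 1071 and 1155 to 2468 and 2504. IER3 fell from 1518 and 1572 to 1011 and 936.1 normalised reads, which the authors' deposited table gives as -0.70 on the log2 scale (SE 0.06, adjusted p 2.78e-27). The sign of the IER3 response was thus opposite to that in knockout cells, with no overlap of treated and untreated libraries in either. ARC went from 1690 and 1790 to 2211 and 2241 normalised reads in wild-type rescue.

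The last background was G3BP1 without the NTF2 domain, the part through which it forms dimers. EGR1 rose 3.31-fold, EGR2 4.77-fold, IER2 1.83-fold and IER5 1.71-fold, IER3 fell, and the remaining 5 genes were not called. That made 4 called higher and 1 lower of the 7 genes given an adjusted p, where 2.43% and 6.14% of all tested genes were called higher and lower. EGR3, NR4A2 and NR4A3 had no adjusted p in this authors' deposited table, since the authors' filter on low genes left them out. EGR1 went from 4730 and 4359 to 15421 and 14651 normalised reads in NTF2-deletion rescue. EGR2 went from 45.3 and 43.1 to 213.5 and 208.1 normalised reads there. IER2 went from 3003 and 2850 to 5301 and 5408 normalised reads. Treated and untreated libraries of these 3 genes did not overlap. IER5 went from 1100 and 1036 to 1727 and 1926, and IER3 from 1336 and 1342 to 949.5 and 999.6 normalised reads in NTF2-deletion rescue. NR4A1, at 640.1 and 522.4 against 674.4 and 648.4 normalised reads, was not called (adjusted p 0.590, authors' deposited table) although its libraries did not overlap. ARC, at 1393 and 1317 against 1570 and 1560, was also apart and not called (adjusted p 0.144, authors' deposited table).

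**Figure D2:**
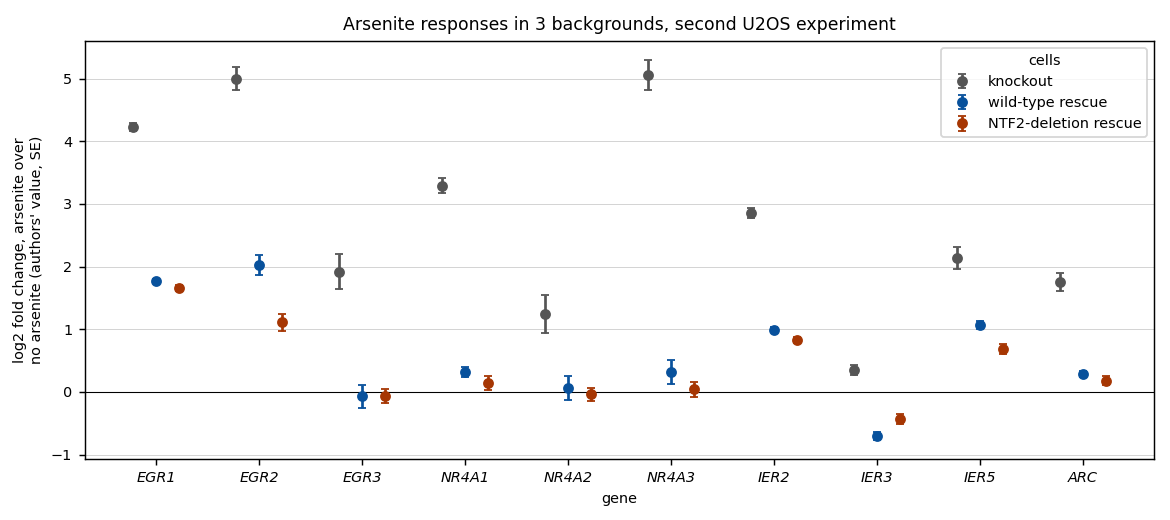
Log2 fold change with arsenite of each gene in knockout cells, wild-type rescue and NTF2-deletion rescue, as in the authors' deposited tables; bars are the authors' standard errors. The knockout value is above both rescue values for all 10 genes, and IER3 is above 0 in knockout cells and below 0 in both rescues.

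Whether the responses differed between backgrounds was tested on the differences of the fold changes, which share no library. All 10 genes had a lower fold change with arsenite in wild-type rescue than in knockout cells, where 2.68% of 15648 tested genes had a lower and 1.82% a higher one. All 10 also had a lower one in NTF2-deletion rescue, where 3.08% of 15442 tested genes had a lower and 4.04% a higher one. The difference for wild-type rescue was largest for NR4A3, at -4.75 on the log2 scale (SE 0.31, adjusted p 1.65e-51, normal test of the difference with Benjamini-Hochberg adjustment). EGR2 and NR4A1 each differed by -2.97 (SE 0.24 and 0.14), EGR1 by -2.46 (SE 0.07), and IER3, at -1.05 (SE 0.10), differed least. NTF2-deletion rescue gave differences from -5.02 for NR4A3 to -0.78 for IER3. The authors' fold changes are shrunk toward 0 by a prior whose width runs from 0.278 (NTF2-deletion rescue) to 0.637 (knockout) on the log2 scale over these 3 tables. With the prior undone, 9 of the 10 differences were still called for each rescue, and NR4A2 no longer was, at -1.70 (adjusted p 0.0522) and -2.01 (adjusted p 0.0723). The shares of all tested genes given above belong to the test before this step, so these counts have no share beside them.

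Between the rescues, EGR2 and IER5 had higher arsenite responses with wild-type than with NTF2-deletion G3BP1, where 0.101% of 15865 tested genes had. The differences were 0.92 (SE 0.21, adjusted p 0.00668) for EGR2 and 0.38 (SE 0.10, adjusted p 0.0341) for IER5. The shrinkage of these tables is unequal, and with the prior undone the differences were 0.48 (adjusted p 1) and 0.34 (adjusted p 0.278), and none of the 10 genes was called. The ratios of group means, free of shrinkage, were 2.74 and 2.25 on the log2 scale for EGR2 and 1.16 and 0.77 for IER5.

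The levels before and after arsenite were compared next. Without arsenite, 6 genes were called higher in wild-type rescue than in knockout cells and 2 lower, where 23.0% and 19.1% of all tested genes were called higher and lower. EGR1 was 3.22-fold, NR4A1 2.43-fold, NR4A3 4.10-fold, IER2 2.87-fold and ARC 7.19-fold higher in wild-type rescue. EGR2 was 3.28-fold and IER3 1.38-fold lower in wild-type rescue. IER5 was called at 0.29 on the log2 scale in the authors' deposited table (SE 0.12, adjusted p 0.0369). Relative to the median of genes whose base mean was 100 or more, which was 0.18, IER5 stood at 0.12 (adjusted p 0.468) and NR4A3 at 1.24 (adjusted p 0.0625), and neither was called. Without the shallower of the untreated knockout libraries, the log2 ratio of NR4A3 moved from 2.04 to 2.74. EGR3 and NR4A2 were not called, at 0.38 and 0.57 in the authors' deposited table.

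NTF2-deletion rescue stood close to wild-type rescue before arsenite. Against knockout cells, 5 genes were called higher and 2 lower, where 22.8% and 18.7% of all tested genes were. EGR1 was 2.91-fold, NR4A1 2.35-fold, NR4A3 4.38-fold, IER2 2.76-fold and ARC 5.60-fold higher, and EGR2 was 3.27-fold and IER3 1.59-fold lower. NR4A3 again rests on the few reads of the knockout libraries, and its log2 ratio of 2.13 became 2.84 without the shallower of them. For EGR3 the NTF2-deletion libraries lay apart from each other, at 19.6 and 45.2 normalised reads, and its log2 ratio of 0.56 became -0.17 when the shallower of them was left out. Both rescues are compared with the same 2 knockout libraries. When the rescues were tested against each other, none of the 10 genes was called, where 0.0185% of 16210 tested genes were, and ARC alone had an unadjusted p under 0.05 (0.0415, adjusted p 1). The difference for ARC was 0.36 on the log2 scale with a 95% interval from 0.01 to 0.71, and for EGR1 0.15 with an interval from -0.05 to 0.34. Since both tables share the knockout libraries, these intervals are wider than the true error. EGR2 was at 45.0 and 43.0 normalised reads with wild-type and 45.3 and 43.1 with NTF2-deletion G3BP1, a log2 ratio of -0.01.

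With arsenite, the rescued cells were below the treated knockout cells for all genes but ARC. EGR2 was 22.2-fold, NR4A3 15.4-fold, EGR3 4.81-fold, NR4A1 3.32-fold and IER3 2.80-fold lower in treated wild-type rescue than in treated knockout cells. EGR1, IER5, NR4A2 and IER2 were lower by 1.67-, 1.84-, 1.96- and 1.25-fold. ARC went the other way, 2.57-fold higher in treated wild-type rescue. In the test of the difference, 8 genes were called lower and ARC higher, where 19.3% and 26.1% of 16533 tested genes were called lower and higher. NR4A2, at -0.49 (SE 0.53, adjusted p 0.486), was not called. The fold changes subtracted here were shrunk unequally, with prior widths of 1.34 for treated wild-type rescue and 0.637 for treated knockout cells. This makes the NR4A2 difference smaller than its group means give. With the prior undone, 8 genes were again called lower and 1 higher. The shares of all tested genes given above belong to the test before this step, so these counts have no share beside them. NTF2-deletion rescue had NR4A2 at -1.19 (adjusted p 0.0840), and it was called at -1.39 (adjusted p 0.0398) after centring and at -1.74 (adjusted p 0.0468) with the prior undone. For NTF2-deletion rescue the counts were also 8 lower and 1 higher, where 19.2% and 24.3% of 16248 tested genes were called, and the folds ran from 31.0-fold lower for EGR2 to 1.80-fold higher for ARC.

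Treated wild-type rescue against treated NTF2-deletion rescue gave no call among the 10 genes, where 0.0785% of 16553 tested genes were called. At an unadjusted p under 0.05, with adjusted p from 0.309 to 1, were EGR1 (0.000486), ARC (0.00164), IER5 (0.00254) and IER2 (0.0107), each higher with wild-type G3BP1. By group means, EGR1 was 1.20-fold, ARC 1.42-fold, IER5 1.36-fold and IER2 1.19-fold higher with wild-type G3BP1. The tables subtracted here share the untreated knockout libraries too, so the standard errors are too large and the absence of a call does not show that the rescues were alike. Against untreated knockout cells, treated wild-type rescue had 7 genes called higher and 1 lower, where 25.1% and 19.8% of all tested genes were, and treated NTF2-deletion rescue 6 and 1, where 23.3% and 19.6% were. IER3 was the gene called lower in both, at -1.12 in each of the authors' deposited tables.

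Over the 6 groups of the second experiment, EGR1, IER2, IER5 and NR4A1 shared 1 order of mean levels. Treated knockout was highest, then treated wild-type rescue, treated NTF2-deletion rescue, untreated wild-type rescue, untreated NTF2-deletion rescue and untreated knockout. All neighbours in that order were apart for EGR1, while both untreated rescues overlapped for IER2, IER5 and NR4A1. For EGR2, untreated knockout cells ranked not last but above both untreated rescues, which overlapped. IER3 had both knockout groups on top and the treated rescues, which overlapped, at the bottom. ARC had treated wild-type rescue on top and all 4 rescue groups above both knockout groups, with every neighbour apart. For EGR3, groups other than treated knockout overlapped their neighbours in order. For NR4A2 and NR4A3, treated knockout was apart from the rest and untreated knockout was lowest, overlapping treated NTF2-deletion rescue for NR4A2 and apart from all others for NR4A3.

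The first experiment gave the levels in wild-type cells, without arsenite. Of the 10 genes, 3 were called higher and 2 lower in the knockout against wild type, where 18.4% and 19.4% of all tested genes were. EGR2 differed most, at 18.4 and 16.7 normalised reads in wild-type cells and 224.8 and 218.8 in knockout cells. That is 12.6-fold by group means, and 3.16 on the log2 scale in the authors' deposited table (SE 0.31, adjusted p 1.04e-23). EGR1 was at 1416 and 1286 normalised reads in wild-type and 2815 and 2764 in knockout cells. IER3 went the other way, at 10497 and 9896 normalised reads in wild-type and 4414 and 4288 in knockout cells. ARC, at 1276 and 1206 against 872.8 and 876.5, was lower in knockout cells too, and IER5, at 2058 and 2053 against 2808 and 2822, was higher. NR4A1, NR4A2, NR4A3, IER2 and EGR3 were not called, with log2 fold changes from -0.54 to 0.52 in the authors' deposited table.

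In G3BP1-rescued cells of this experiment EGR2 was at 74.0 and 58.2 normalised reads, between wild-type and knockout cells and apart from both. IER3 was also in between, at 5915 and 5910 normalised reads. EGR1, at 2896 and 2665, overlapped the knockout libraries. ARC, at 1278 and 1464 normalised reads, lay barely above the wild-type libraries, the higher of which was at 1276. Wild type against rescue was not called for ARC, at -0.15 in the authors' deposited table (SE 0.10, adjusted p 0.24). Knockout against rescue thus had 1 gene called higher (EGR2) and 3 lower (IER2, IER3 and ARC), where 16.1% and 21.5% of all tested genes were. The IER2 difference was small, at -0.20 in the authors' deposited table (SE 0.06, adjusted p 0.00476). Wild type against rescue had IER3 called higher and EGR1, EGR2, IER2 and IER5 lower, where 15.2% and 20.4% of all tested genes were.

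**Figure D3:**
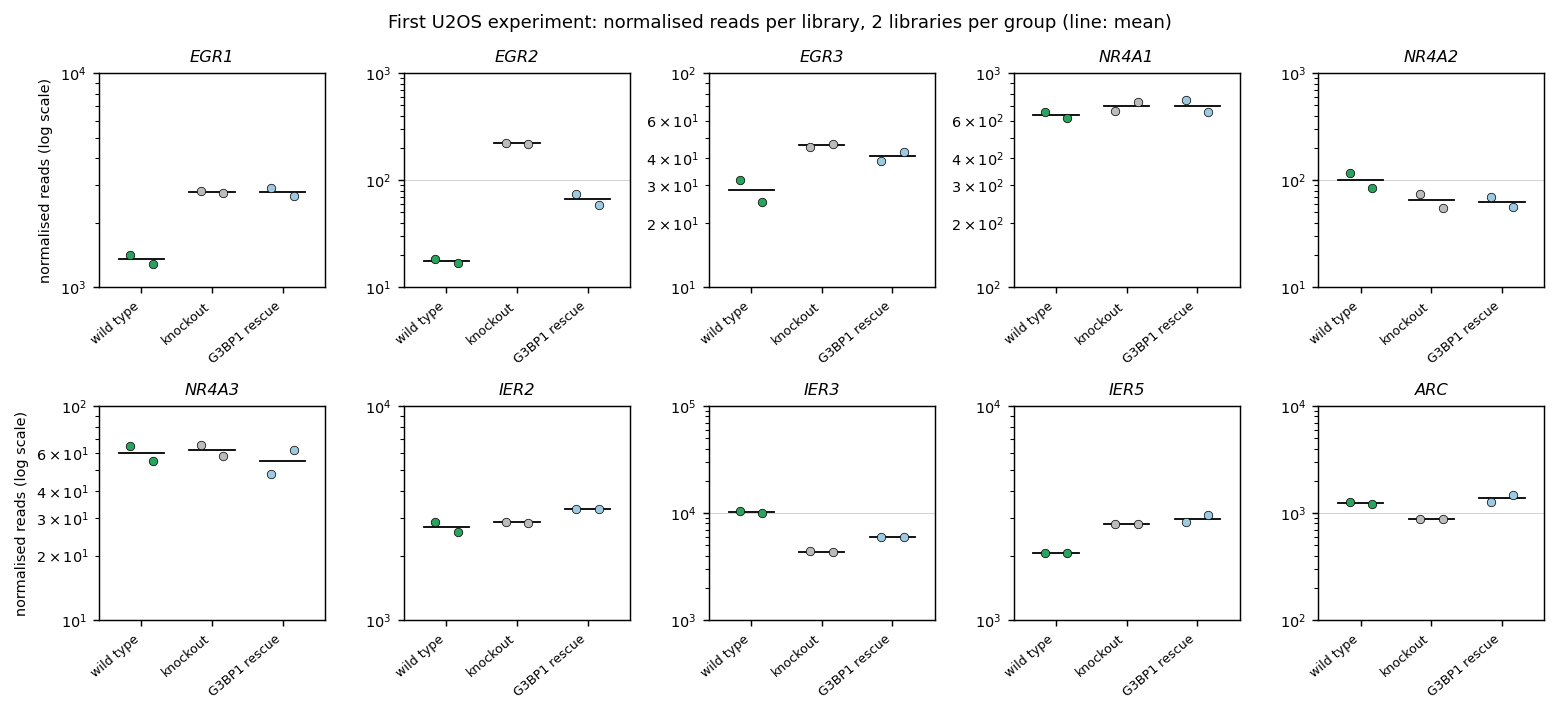
Normalised reads (log scale) of each gene in the 6 libraries of the first experiment, 2 points per group with a line at the mean. EGR2 is lowest in wild-type and highest in knockout cells, and IER3 is highest in wild-type and lowest in knockout cells, with rescued cells in between for both.

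Rescue against knockout was thus measured in both experiments, and the genes split. EGR2 was lower in rescued cells each time, with log2 ratios of group means of -1.71 in the second experiment and, for knockout over rescue, 1.75 in the first. The difference between the experiments, -0.09 (SE 0.40, adjusted p 0.9), was not called for EGR2. ARC was higher in rescued cells in both, by 7.19-fold in the second and 1.57-fold in the first. EGR1, NR4A1, NR4A3 and IER2 were higher by 2.43-fold or more in wild-type rescue of the second, while in the first their log2 ratios of knockout over rescue lay between -0.21 and 0.17. IER3 was lower with rescue in the second and higher in the first. By the test of the difference, 5 genes had a higher and 1 a lower rescue fold change in the second experiment, where 20.3% and 17.0% of 16369 tested genes had. ARC differed by 2.19 (SE 0.16), EGR1 by 1.69 (SE 0.10), IER2 by 1.31 (SE 0.10), NR4A1 by 1.25 (SE 0.20) and IER3 by -0.90 (SE 0.10) on the log2 scale. NR4A3, at 1.53 (SE 0.63, adjusted p 0.0420), was no longer called after centring on the table medians (adjusted p 0.0678) or without a base mean minimum (adjusted p 0.0773). G3BP1 moved with this difference: rescue against knockout was 7.31 in the second experiment, while knockout against rescue was -0.69 in the first, both on the log2 scale of the authors' deposited tables. Its part in the result was not tested, and neither was that of the depth, which was lower in the second experiment.

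**Figure D4:**
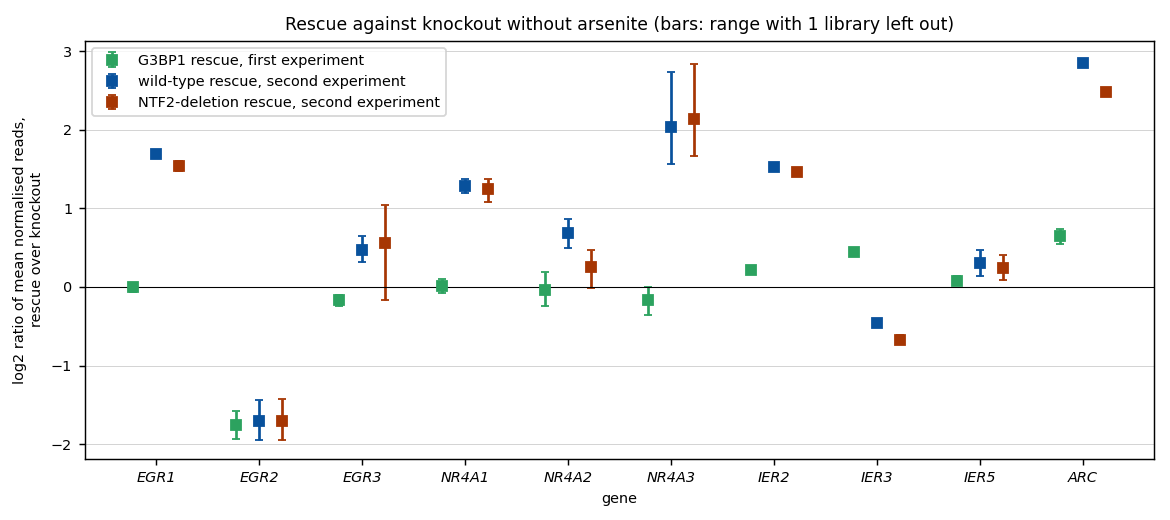
Log2 ratio of mean normalised reads, rescue over knockout without arsenite, for G3BP1 rescue in the first experiment and both rescues in the second; bars span the values with 1 library left out. EGR2 is near -1.7 in all 3 rescues, while EGR1, NR4A1, NR4A3 and IER2 are above 1 in both rescues of the second experiment and near 0 in the first.

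RIP-seq asked whether these transcripts were higher or lower in FLAG-G3BP1 immunoprecipitate than in input. No control immunoprecipitate was used here, so recovery above background was not measured. EGR1 and EGR3 were lower and IER3 was higher in immunoprecipitate than in input, and the other 7 genes were not called. That is 1 gene higher and 2 lower of 10, where 24.7% and 31.4% of all tested genes were. IER3 was at 172.2, 144.4 and 152.1 normalised reads in the deepest, middle and shallowest immunoprecipitate and at 89.7, 74.9 and 83.6 in the inputs in the same order. EGR1 was at 48.2, 81.1 and 29.6 in immunoprecipitates and at 121.4, 126.3 and 126.0 in inputs. EGR3, at 3.33, 11.2 and 7.73 against 24.3, 23.4 and 19.5 normalised reads, was low in all 6 libraries. For these 3 genes immunoprecipitate and input did not overlap, and neither did they for NR4A2 and NR4A3, which were lower in immunoprecipitate by 1.60- and 1.85-fold. Centring used 0.12, the median of genes whose base mean was 100 or more. After it, NR4A2 (adjusted p 0.0315) and NR4A3 (adjusted p 0.0453) were called lower as well. Their base means were 40.56 and 20.67, and the median over all tested genes was -0.26, on which nothing was centred. NR4A1 and ARC overlapped, at 1.06-fold higher and 1.18-fold lower in immunoprecipitate. EGR2 had 14 reads in all immunoprecipitates and 9 in all inputs, too few to show a difference at this depth. IER2 and IER5 both stood at 0.26 in the authors' deposited table (adjusted p 0.0577 and 0.0528). No gene of the 10 was called once the Wald statistics were divided by their robust spread of 3.84, which left adjusted p values from 0.738 to 0.967 for these 3 genes.

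**Figure D5:**
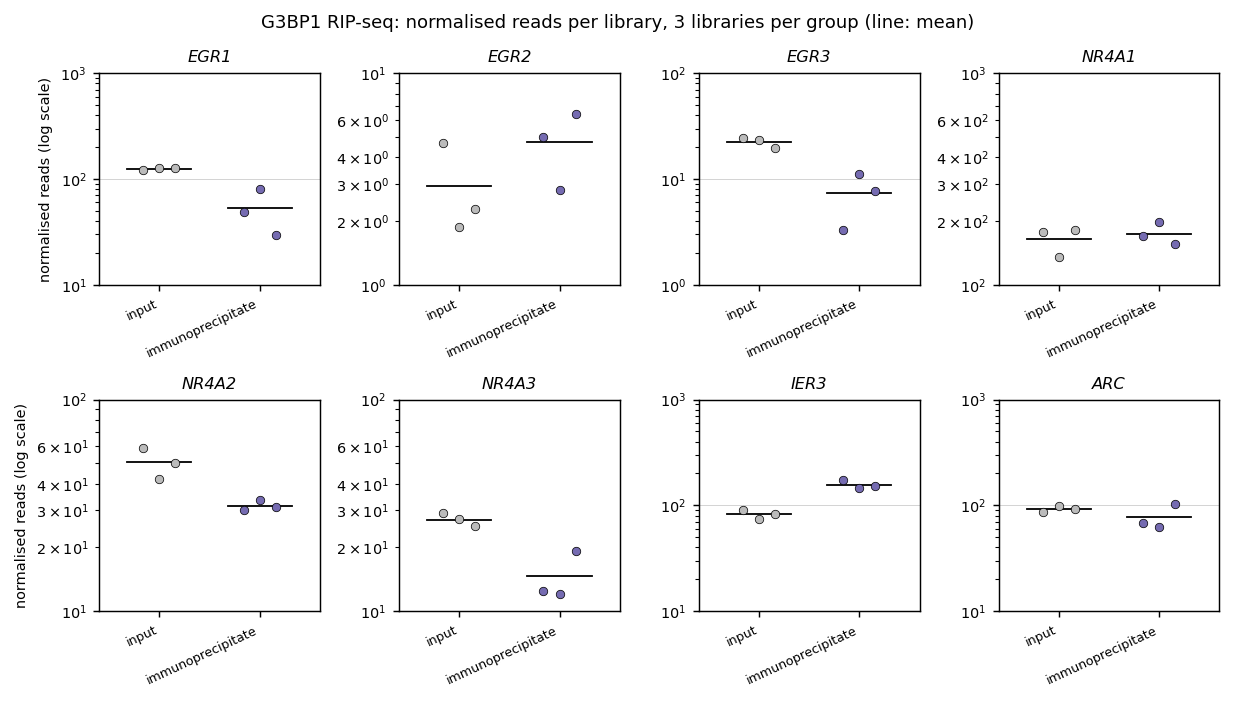
Normalised reads (log scale) of 8 genes in 3 input and 3 immunoprecipitate libraries, with a line at the mean; IER2 and IER5 could not be resolved per library. IER3 is higher in all 3 immunoprecipitates, and EGR1, EGR3, NR4A2 and NR4A3 are lower in all 3.

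Other genes of the pathway were taken from 3 lists. Of 38 further immediate-early genes, 30 of 35 tested rose with arsenite in knockout cells and 1 fell, where 8.56% and 10.9% of all tested genes did, with FOSB at 7.64 (SE 0.17) and FOS at 6.13 (SE 0.13) highest and PHLDA1 at -0.60 (SE 0.17) lowest in the authors' deposited table. FOSB and FOS encode subunits of AP-1. In wild-type rescue 19 of 36 rose and 5 fell, where 8.18% and 12.2% of all tested genes did, with FOS at 2.41 (SE 0.11) and DUSP2, a MAP kinase phosphatase, at 1.94 (SE 0.07) highest in the authors' deposited table. In NTF2-deletion rescue 17 of 35 rose and 4 fell, where 2.43% and 6.14% of all tested genes did. The response was lower than in knockout cells for 27 of 36 in wild-type rescue and for 28 of 36 in NTF2-deletion rescue, and higher for 1 in each. Of all tested genes, 2.68% were lower and 1.82% higher in the first of these tests, and 3.08% and 4.04% in the second. Both treated, 16 of 36 were higher and 14 lower in wild-type rescue than in knockout cells, where 26.1% and 19.3% of all tested genes were, with a median difference of 0.41 against 0.02 over all tested genes. The same median for the 10 genes described here was -1.09. Both groups of genes were chosen with earlier results known, so these medians are descriptions. The unequal shrinkage of the fold changes subtracted here bears on both. Without arsenite, 31 of 37 were higher in wild-type rescue than in knockout cells and 2 lower, where 23.0% and 19.1% of all tested genes were, with FOSL1 at 3.49 and DUSP5 at 3.34 highest and JUND at -1.68 and BTG2 at -1.25 lowest in the authors' deposited table. In the first experiment 2 of 37 were higher and 21 lower in knockout than in rescued cells, where 16.1% and 21.5% of all tested genes were.

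Of 7 relatives and protein partners, 6 were tested with arsenite in knockout cells. Of these, 2 rose and 0 fell, where 8.56% and 10.9% of all tested genes did. They were EGR4 at 6.0 (SE 0.25) and IER5L at 0.58 (SE 0.20) in the authors' deposited table. Without arsenite, 1 relative was called higher and 1 lower in wild-type rescue than in knockout cells, where 23.0% and 19.1% of all tested genes were. NAB2, a corepressor that binds EGR proteins and is itself an EGR target, was higher at 0.54 (SE 0.12). RXRA was lower at -0.32 (SE 0.12). In NTF2-deletion rescue 1 was higher and 2 lower, where 22.8% and 18.7% of all tested genes were. NAB2 stood at 0.47 (SE 0.12), IER5L at -0.72 (SE 0.28) and RXRA at -0.29 (SE 0.12) there, all in the authors' deposited tables. Of 21 upstream kinases and transcription factors, 3 rose and 1 fell with arsenite in knockout cells, where 8.56% and 10.9% of all tested genes did. SRF, which binds the CArG box, was highest among them at 2.53 (SE 0.08), with ELK3 lowest at -0.35 (SE 0.12), in the authors' deposited table. In wild-type rescue 3 of the 21 rose and 0 fell with arsenite, where 8.18% and 12.2% of all tested genes did. Without arsenite, 10 of the 21 were higher and 6 lower in wild-type rescue than in knockout cells, where 23.0% and 19.1% of all tested genes were, with ELK3 at 1.89 and MAP2K1, the MAPK kinase that activates ERK, at 1.24 highest and MRTFB at -1.64 and MAPK3 at -0.66 lowest in the authors' deposited table.

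The genes most like EGR1, NR4A1 and IER2 were sought over 5 comparisons with untreated knockout cells, which share those libraries, among 10477 genes whose base mean was 100 or more in each. Likeness was the root mean square difference of the 5 log2 fold changes. JUN (0.43), DDIT3 (0.45) and MAFF (0.53) were nearest to EGR1. NR4A1 was most like CCN2 (0.46), GLIPR1 (0.50) and DNAJA4 (0.51), and IER2 most like ZFAND2A (0.24), DNAJA4 (0.32) and ANKRD1 (0.39). JUN had log2 fold changes of 4.68 with arsenite in knockout cells and 2.17 in untreated wild-type rescue against knockout, where EGR1 had 4.23 and 1.68, in the authors' deposited tables.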

How the data were processed

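The authors aligned reads with STAR (2.7.0f for the first experiment and RIP-seq) and compared groups with DESeq2 (2.11.40.6), per the submitters' processing notes; build, annotation and use of strand in counting are not given in the sources used here, so overlapping antisense genes cannot be told apart. Libraries were poly-A selected and strand-preserving, per the labels' protocols. The deposited tables give a base mean (a signal in normalised reads), a log2 fold change with its standard error (shrunk by a normal prior), a Wald statistic (a score) and p-values, as the file headers name them; 4 summary lines per table were removed. Where tables have no header, columns follow the same order.

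The members, lists and tests were chosen with earlier results of these data known. Base means carry 15 digits, and genes with 1 read in 1 library give each size factor; whole reads per library are then the integers that give the base mean in every table sharing the library. They had 1 solution for all 10 genes in the first (3 tables) and second experiment (7 tables), and for 8 in RIP-seq. Libraries are known only as deeper or shallower. Size factors were put on 1 scale per experiment, so levels are not comparable between experiments. No count test was run, since reads were solved for these genes only. Calls are adjusted p-values under 0.05. Differences of fold changes were divided by the root of the summed squared standard errors, two-sided against a normal distribution, with Benjamini-Hochberg adjustment over genes with base means of at least 10 in both tables. The prior was undone from its width, which is 2 times the largest standard error of a table. An exact permutation test of 2 against 2 libraries cannot go below p = 0.333, so none is given. The scripts were tested on simulated data, but read recovery only as in comparisons of the second experiment, not the first or RIP-seq. The search for whole reads began with similar values for the libraries of a group. It ended at the first range with a solution, so wider ranges were then not searched. All 10 genes are named in every table; list genes named are the 2 highest and 2 lowest called with base means of at least 100 in the comparisons described. Promoter sequences are from RefSeq (GRCh38.p14). Calculations used Python 3.11.15, pandas 2.3.3, numpy 2.4.6 and scipy 1.17.1. The other 48 of 72 libraries were not analysed here.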

Additional observations from a re-analysis of the deposited data

Results flagged for a closer look

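The arsenite response of each of the 10 genes differed between backgrounds by the test of the difference, except that NR4A2 was not called in either rescue with the prior undone (adjusted p 0.0522 and 0.0723). Wild-type rescue minus knockout gave -2.46 for EGR1, -2.97 for EGR2, -1.98 for EGR3, -2.97 for NR4A1, -1.18 for NR4A2, -4.75 for NR4A3, -1.87 for IER2, -1.05 for IER3, -1.06 for IER5 and -1.46 for ARC on the log2 scale. NTF2-deletion rescue minus knockout gave -2.57 for EGR1, -3.89 for EGR2, -1.98 for EGR3, -3.15 for NR4A1, -1.28 for NR4A2, -5.02 for NR4A3, -2.04 for IER2, -0.78 for IER3, -1.45 for IER5 and -1.57 for ARC.

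Wild-type minus NTF2-deletion rescue gave 0.92 for EGR2 and 0.38 for IER5, and neither was called with the prior undone. Rescue against knockout differed between the second and the first experiment by 1.69 for EGR1, 1.25 for NR4A1, 1.53 for NR4A3, 1.31 for IER2, -0.90 for IER3 and 2.19 for ARC. The NR4A3 call was lost after centring (adjusted p 0.0678) and without a base mean minimum (adjusted p 0.0773). Each rescue was compared with the knockout libraries of its own experiment, so the experiment and its rescue transfection cannot be told apart here.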

How the results depend on the processing

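Of the recomputed counts of called genes, 68 stayed within 1.5 times the main count and 9 did not. Shares of all tested genes were not recomputed under these settings, so the recomputed counts have no share beside them. With a minimum absolute log2 fold change of 1, the count fell from 5 to 3 in knockout against wild type, from 4 to 1 in knockout against rescue, from 5 to 2 in wild type against rescue, from 7 to 3 for arsenite in wild-type rescue and from 5 to 2 for arsenite in NTF2-deletion rescue. In RIP-seq the 3 calls became 5 after centring and 0 with the Wald statistics divided by their spread. The 2 genes that differed between the arsenite responses of the rescues became 1 without a base mean minimum and 0 with the prior undone. Scaling by the summed reads of genes moved log2 ratios of rescue against knockout by -0.24 to -0.30 in the second experiment. In the first it moved knockout against rescue by 0.04. It turned NTF2-deletion rescue against knockout from 0.24 to -0.03 for IER5 and from 0.25 to -0.02 for NR4A2. With that rescue treated, EGR3 turned from 0.21 to -0.08 and NR4A2 from 0.06 to -0.23. The scaling also changed the sign of NR4A1 in knockout against rescue (-0.01 to 0.03) and of EGR2 between untreated rescues (-0.01 to 0.02), and none of these genes was called in these comparisons. Leaving out the shallower untreated knockout library moved the ratios of NR4A3 by over 1.5 times. The authors' tests were not rerun with a library left out. No paired analysis was possible because the recovered reads carry no replicate numbers. Depth limits NR4A3 in untreated knockout cells, EGR3, NR4A2, and EGR2 in RIP-seq.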
